A study of Mus musculus with 10 samples.

Results

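The NR4A receptors are the orphan nuclear receptors Nr4a1, Nr4a2 and Nr4a3, and they were followed here in mouse cortical cultures before and after depolarization. Their members are all counted Ensembl transcripts annotated to these 3 genes. This gave 3 transcripts of 22534, and all 3 belong to Nr4a2, also known as Nurr1. No counted transcript was matched to Nr4a1 or Nr4a3, whose expression is not analysed here. The family was chosen by its measured response to KCl, that is by the RNAseq, RF and TE (translation efficiency) values of the same comparison, so the changes of Nr4a2 after KCl are given as a description, without a p-value, and nothing is read from the fact that it was called.

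NR4A proteins are transcription factors of the nuclear receptor family whose ligand pocket is filled by side chains, so that their activity follows mainly from how much protein is made. Their genes are immediate early genes: depolarization lets calcium into a neuron, kinases activate CREB and MEF2 at the promoters, and mRNA appears without prior protein synthesis. Nr4a2 binds DNA alone at the NBRE motif or together with the retinoid X receptors, and it is best known for specifying midbrain dopaminergic neurons and, in cortex and hippocampus, for its part in memory.

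The cultures were derived from the cortices of newborn (P0) FVB pups and hold neurons and glia, although the labels call them mouse neurons. After 7 days they were either left without KCl (3 cultures, numbered 1 to 3) or exposed to 55 mM KCl for 3 h (2 cultures, 4 and 5). The paper reports that a further KCl replicate was removed because its library was much smaller. Ribosomes were stalled with cycloheximide in every culture before lysis. Each lysate was divided between RNAseq, for transcript abundance, and ribosome footprinting (RF), in which the mRNA fragments protected by ribosomes are sequenced. The labels do not say whether the cultures came from separate litters, so errors and p-values measure the spread between these cultures.

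RNAseq libraries held 3056286 to 3629959 counted reads and RF libraries 1463654 to 7719915. Untreated culture 3 and KCl culture 4 had the shallowest RF libraries. Transcripts were called measured when RNAseq and RF both reached an RPKM (reads scaled by region length and library size) of 10 or more within a culture, and did so in 2 cultures or more. This kept 7262 transcripts of 4370 genes. All 3 Nr4a2 transcripts were kept, but only through the 2 KCl cultures. In RNAseq, the 7 astrocyte markers summed to an RPKM of 2848 to 3281 in untreated and 2418 to 2553 in KCl cultures, and the 8 counted neuron markers to 180 to 251 and 212 to 213.

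The 3 transcripts lie on the minus strand of chromosome 2 (GRCm38) and differ mainly in where they start. Their names here refer to those starts. Nr4a2-proximal (ENSMUST00000028166, chr2:57106830-57115038) has 8 exons, a 5′UTR of 445 bases, a coding sequence (CDS) of 598 codons and a 3′UTR of 1329 bases. Nr4a2-distal (ENSMUST00000112629, chr2:57106830-57124003) encodes the same 598 codons but begins with another first exon 8965 bases farther upstream, which gives a 5′UTR of 299 bases. Nr4a2-short (ENSMUST00000112627, chr2:57107499-57113072) starts at the exon that is second in the other two, lacks the first 189 bases of their CDS, encodes 535 codons and ends in a 3′UTR of 660 bases.

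**Figure D1:**
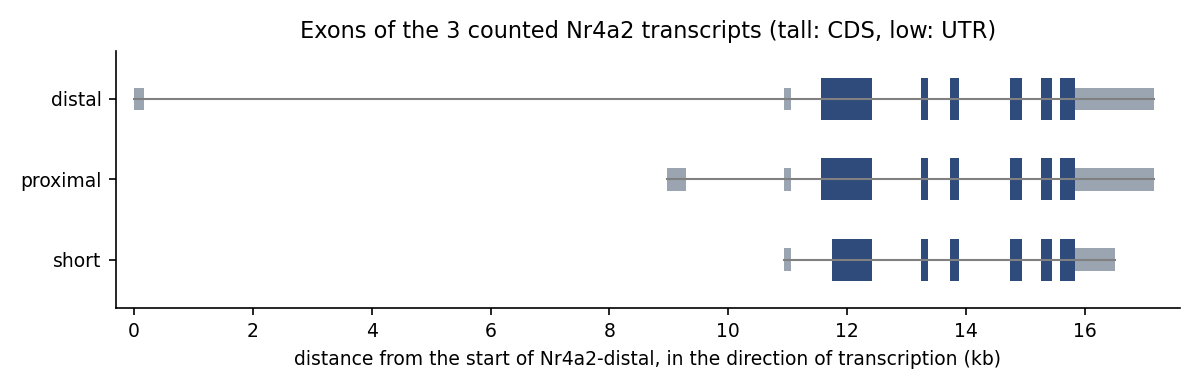
Exons of the 3 counted Nr4a2 transcripts, drawn by distance in kilobases from the start of Nr4a2-distal in the direction of transcription, with CDS as tall boxes and UTRs as low boxes. All 3 share most coding exons, while Nr4a2-proximal and Nr4a2-distal each have a first exon of their own, whose starts lie 8965 bases apart.

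Promoters were searched for the CREB site (CRE, TGACGTCA), its core (TGACG), the MEF2 and SRF (CArG) sites and the NBRE (AAAGGTCA), on both strands, from 250 bases before to 50 after the start. A full CRE also counts as a core on each strand. Among 32544 mouse promoters of the RefSeq table, 1.80% held a CRE, 20.9% a core, 3.16% a MEF2 site, 1.64% a CArG box and 1.52% an NBRE. The following stretches are shown because these sites are the known route from calcium to the family. Capitals mark the match, and the letters are those of the C57BL/6J reference (GRCm38), not of FVB.
Nr4a2-proximal CRE: ccccagtcgTGACGTCAggtcggaaata
Nr4a2-distal MEF2 site: ggcggcgggTTATTTATAGcgccggctg
Nr4a2-distal CRE core: cggggccgcTGACGcgcttggccgcggg
Nr4a1 CRE core: ctctccatgCGTCAcggagcgcttaaga
Nr4a3 CRE core: tggcataaaTGACGtgccgagagagcga

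The start of Nr4a2-proximal had the only full CRE, 47 bases upstream (chr2:57115067-57115094, minus strand). Coordinates in this paragraph are those of the whole printed stretch, not of the match within it. The upstream start of Nr4a2-distal, which is also the RefSeq start, had no full CRE in the window but 4 CRE cores, the nearest 111 bases upstream (chr2:57124096-57124123, minus strand), and a MEF2 site 167 bases upstream (chr2:57124152-57124179, minus strand). The Nr4a1 promoter held 4 CRE cores, the nearest 40 bases upstream (chr15:101266797-101266824, plus strand). The Nr4a3 promoter also held 4, the nearest 147 bases upstream (chr4:48045149-48045176, plus strand). No CArG box and no NBRE were matched in any of these windows, which says only that these letters are not there.

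Nr4a2 was close to undetected in untreated cultures and among the well-expressed mRNAs after KCl. Nr4a2-proximal, the transcript with the highest mean count, had 21, 14 and 13 RNAseq reads in untreated cultures 1, 2 and 3 and 595 and 588 in KCl cultures 4 and 5. Scaled by library size with TMM factors (normalised CPM), these were 8.17, 5.46 and 5.32 against 245 and 215. Both KCl cultures thus lay far above all untreated ones, and the lower of them was 26.4-fold above the highest untreated culture. The group means were 6.32 ± 1.61 (SD, n = 3) and 230 ± 20.5 (SD, n = 2). In bulk cultures, more cells that express the gene and more RNA per cell cannot be told apart.

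Footprints on the Nr4a2 CDS rose with the mRNA. Nr4a2-proximal had 21, 13 and 8 footprints on its CDS without KCl and 212 and 521 with it. As normalised CPM this was 3.64, 2.64 and 7.49 against 189 and 242, and again the groups did not overlap. The means were 4.59 ± 2.56 (SD, n = 3) and 215 ± 37.6 (SD, n = 2). The highest untreated value came from culture 3, where it rests on 8 footprints in the shallowest RF library.

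On a scale per length, Nr4a2-proximal was in the upper part of the measured transcripts after KCl. Its place at the bottom of them in untreated cultures follows from the filter, which it passed through the KCl cultures only. Its RNAseq RPKM was 1.81, 1.22 and 1.19 in untreated cultures and 51.5 and 45.4 after KCl, where the median measured transcript had between 20.8 and 21.8 in every culture. It stood at or below percentile 0.07 in each untreated culture and at percentiles 81.7 and 78.2 in the KCl cultures. Its RF RPKM was 1.52, 1.11 and 3.05 in untreated cultures and 73.5 and 93.1 after KCl, the latter at percentiles 74.1 and 79.9.

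Translation efficiency (TE), the CDS footprint RPKM over the RNAseq RPKM of the same culture, overlapped between the groups. For Nr4a2-proximal it was 0.840, 0.910 and 2.56 in untreated cultures and 1.43 and 2.05 after KCl, so that untreated culture 3 was the highest of all 5 and cultures 1 and 2 the lowest. The median TE of measured transcripts was 1.64 to 1.69. Nr4a2-proximal was thus placed at percentiles 13.4, 18.6 and 73.9 of all measured transcripts in untreated cultures and at 41.5 and 60.8 in KCl cultures. The untreated ratios rest on 13 to 21 RNAseq reads and 8 to 21 footprints.

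**Figure D2:**
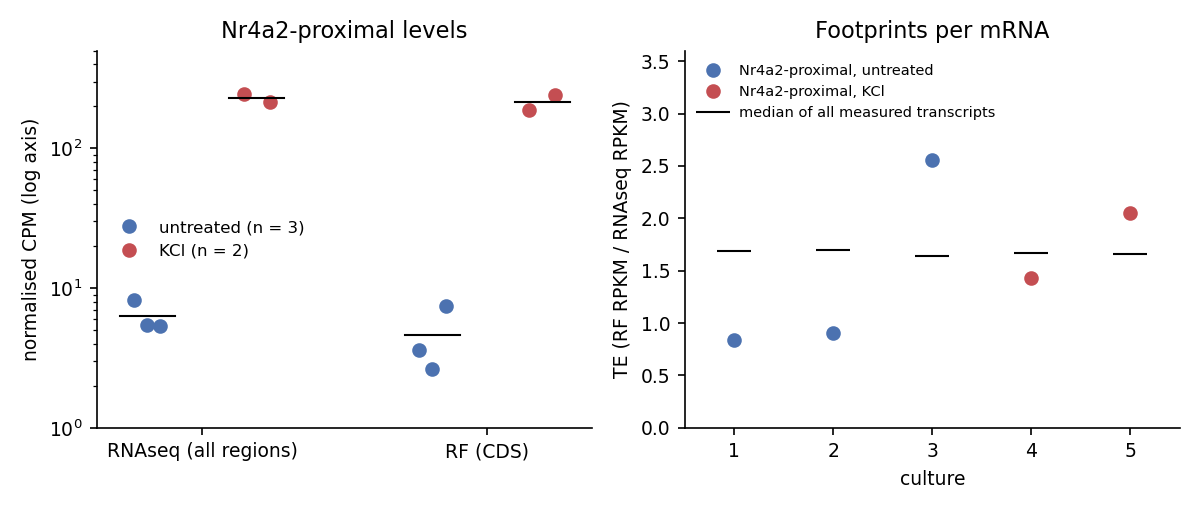
Left, normalised CPM of Nr4a2-proximal in RNAseq and CDS RF on a log axis, 1 point per culture, with a bar at each group mean (3 untreated, 2 KCl). Right, its TE in each culture beside the median TE of all measured transcripts: the levels of the groups are apart, while untreated TE spans 0.840 to 2.56 and encloses both KCl values.

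In the edgeR fit over all measured transcripts, the log2 fold change of Nr4a2-proximal after KCl was 5.17 (SE 0.21) in RNAseq and 5.90 (SE 0.21) in RF. Nr4a2-short had 4.92 (SE 0.23) and 6.01 (SE 0.24), and Nr4a2-distal 5.09 (SE 0.21) and 5.90 (SE 0.21). These are the 3 largest increases of 7262 in each assay. The family was chosen by this same comparison and passed the filter only through the KCl cultures, so nothing is read from that rank. The transcripts are not 3 independent measurements, since reads that map to several transcripts were kept for each: the CDS, 3′UTR and further region counts of Nr4a2-proximal and Nr4a2-distal are identical in 10 of 10 libraries.

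At an adjusted p under 0.05, all 3 transcripts were called higher in both assays. Of all measured transcripts, 33.0% were called in RNAseq (17.9% higher, 15.1% lower) and 40.9% in RF (20.8% higher, 20.1% lower). When scaled by library totals, the share of calls that were higher moved from 54.3% to 42.5% in RNAseq and from 50.9% to 38.2% in RF. Both KCl cultures lay above all untreated cultures for 27.6% of measured transcripts in RNAseq and 30.2% in RF. Without KCl culture 5, the number of RF calls fell from 2971 to 1698.

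None of the 3 transcripts was called for TE, where the fit asks if KCl changed RF and RNAseq by different factors and pairs the 2 libraries of each culture. The log2 TE change was 0.67 (SE 0.38) for Nr4a2-proximal, 1.01 (SE 0.41) for Nr4a2-short and 0.75 (SE 0.38) for Nr4a2-distal, while the median over all transcripts was 0.01. TE was called for 5.8% of measured transcripts (1.53% higher, 4.27% lower), and both KCl cultures lay above all untreated ones in TE for 15.7%. Nr4a2-short was called when untreated culture 3 was left out, with a log2 TE change of 1.46. The number of TE calls over all transcripts rested on both KCl cultures and was 143 without culture 4 and 70 without culture 5, against 421.

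RNAseq reads of Nr4a2 covered the whole transcript, whereas footprints were found on the CDS and the 5′UTR. The files name regions by letter, and these were taken as 5′UTR, CDS and 3′UTR from their order and their shares of reads. In the KCl cultures together, Nr4a2-proximal had 173 RNAseq reads on the 5′UTR, 449 on the CDS and 473 on the 3′UTR. The footprints of the same cultures numbered 86 on the 5′UTR, 733 on the CDS and 1 on the 3′UTR. In the untreated cultures together they numbered 6, 42 and 0, where a count of 0 allows a share of up to 6.25% of the 48 footprints. This and the intervals below cover counting error only.

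The 5′UTR share of the 5′UTR and CDS footprints did not separate the groups. It was 0 of 21, 3 of 16 and 3 of 11 footprints in untreated cultures, where the 0 of 21 allows up to 14.3% by 3 counts and 16.1% by the exact binomial 95% interval. In KCl cultures it was 10.9% (26 of 238) and 10.3% (60 of 581). Pooled, this was 12.5% (exact binomial 95% interval 4.73 to 25.2) and 10.5% (8.49 to 12.8). Over all measured transcripts the share was 5.54% to 7.96% in untreated and 6.33% to 6.85% in KCl libraries, but this share also follows the length of the 5′UTR, which is at percentile 89.2 for Nr4a2-proximal (median 174 bases). Per base, the KCl footprint density of its 5′UTR was 0.473 of that of its CDS, at percentile 56.4 of 6460 transcripts. For Nr4a2-short it was 0.304 and for Nr4a2-distal 0.147, at percentiles 43.6 and 29.3. Their pooled 5′UTR shares in KCl cultures were 2.50% and 2.40%.

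Footprints on the 5′UTR rose together with those on the CDS. Normalised by the CDS library sizes, the 5′UTR of Nr4a2-proximal had 0, 0.609 and 2.81 CPM in untreated cultures and 23.1 and 27.8 in KCl cultures. The log2 fold change was 5.43 (SE 0.64) for Nr4a2-proximal, 4.12 (SE 0.92) for Nr4a2-short and 4.19 (SE 0.90) for Nr4a2-distal. All 3 were called, where 4.17% of 5275 transcripts were (3.72% higher, 0.455% lower). The 5′UTR footprints were among the values by which the family was chosen, so nothing is read from these calls. Nr4a2-short and Nr4a2-distal had 17 and 18 such footprints in the KCl cultures together, nearly all the same reads. The untreated counts are so low that the value for Nr4a2-proximal was 4.45 without untreated culture 1 and 6.34 without culture 3. For Nr4a2-short and Nr4a2-distal the call was lost without KCl culture 4 or 5. The number of calls over all transcripts moved as widely, from 220 to 105 without untreated culture 1, 499 without untreated culture 3, 47 without KCl culture 4 and 9 without KCl culture 5.

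Reads that tell Nr4a2-proximal from Nr4a2-distal lie in the 5′UTR alone, and after KCl more of them fell on the first exon of Nr4a2-proximal than on that of Nr4a2-distal. The 5′UTR counts of Nr4a2-short, which hold the shared second exon, were subtracted from those of Nr4a2-proximal and Nr4a2-distal. The remainder holds the reads on the first exon of Nr4a2-proximal (321 bases) or Nr4a2-distal (175 bases), apart from 13 bases that only the 5′UTR of Nr4a2-short counts. It also holds reads across the junction of exons 2 and 3, which Nr4a2-short joins farther downstream. Such reads enter both remainders and could not be told apart, so neither is a pure count of a first exon. In RNAseq, KCl cultures 4 and 5 had 30 and 51 reads in the remainder of Nr4a2-proximal and 4 and 15 in that of Nr4a2-distal. The excess of Nr4a2-proximal over Nr4a2-distal, in which junction reads cancel, was 26 and 36 reads. Per 100 bases of first exon the remainders were 9.35 and 15.9 reads against 2.29 and 8.57, so that of Nr4a2-proximal was the denser in both cultures. The 5′UTR of Nr4a2-short, mostly the exon that all 3 share, had 36.9 and 38.5 reads per 100 bases of that exon, more than both remainders together. The comparison is therefore between the 2 remainders and does not give the share of Nr4a2-short.

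Footprints too were more numerous in the remainder of Nr4a2-proximal, by a wider margin than RNAseq reads. The remainder of Nr4a2-proximal had 19 and 50 in the KCl cultures, and that of Nr4a2-distal had 0 and 1. Of 100 RNAseq reads in either remainder in the KCl cultures, 19.0% were in that of Nr4a2-distal (exact binomial 95% interval 11.8 to 28.1). Of 70 footprints this was 1.43% (0.036 to 7.70). Junction reads may make up part or all of the reads of Nr4a2-distal, so these are not shares of first-exon reads. Why the shares differ was not tested, and footprints show where ribosomes were, not which start was used. In untreated cultures both remainders had at most 2 reads in any library, too few to compare.

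**Figure D3:**
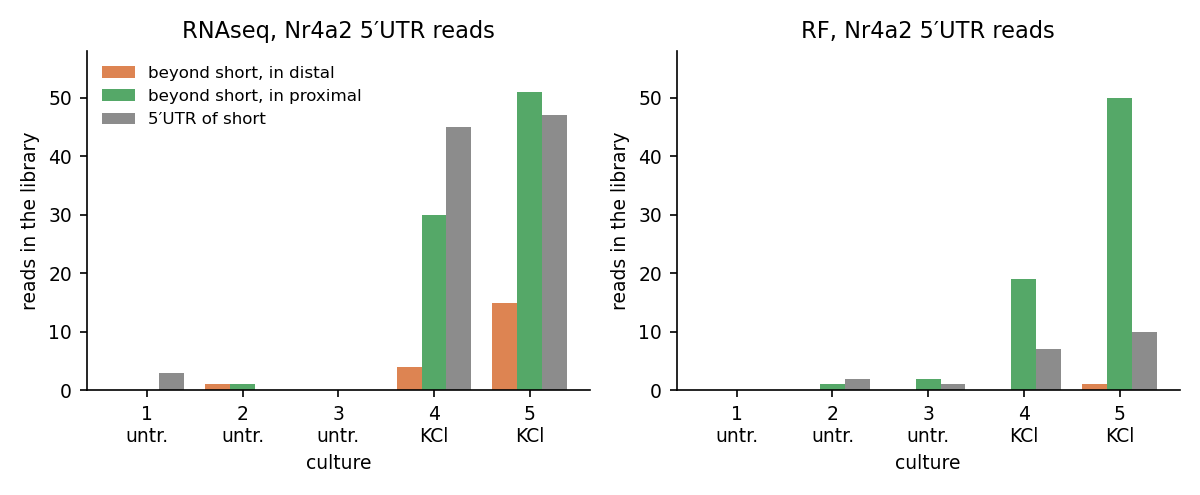
Reads on the Nr4a2 5′UTR per culture in RNAseq (left) and RF (right): the 5′UTR of Nr4a2-short, which is mostly the shared second exon, and the reads beyond it in Nr4a2-proximal and in Nr4a2-distal. In KCl culture 5, 50 footprints were beyond it in Nr4a2-proximal and 1 in Nr4a2-distal.

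The first exon of Nr4a2-proximal also holds all 3 upstream AUG codons of the gene's counted 5′UTRs. They begin 72, 301 and 305 bases from the transcript start and open reading frames of 9, 36 and 8 codons, each of which ends within the 5′UTR. The 5′UTRs of Nr4a2-short and Nr4a2-distal have 0, and the median measured transcript has 1. Counts per region do not show on which of these codons the footprints lie.

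The long and the short coding sequence could be compared through the 189 bases that Nr4a2-short lacks, which make up 10.5% of the CDS of Nr4a2-proximal. They held 20 of 212 CDS footprints (9.43%) in KCl culture 4 and 49 of 521 (9.41%) in culture 5. In RNAseq they held 52 of 226 and 37 of 223 CDS reads. The 3′UTR of Nr4a2-proximal carries 3 AUUUA elements, which are known from short-lived mRNAs, against a median of 1. Its RNAseq density relative to the CDS was 1.42 in the KCl cultures together, at percentile 47.8 of all measured transcripts. In the untreated cultures together it was 1.28, which rests on 18 reads on the 3′UTR and 19 on the CDS and was 0.831 without culture 1.

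The genes that carry calcium and cAMP signals to NR4A promoters were described from a list of 58, of which 26 were measured, each by its leading transcript. Here and in the lists below, a gene could pass the filter through 1 group alone. Its place in the counts then follows partly from the filter. In RNAseq 8 were higher, 1 was lower and 17 did not pass the test. In RF 8 rose, 4 fell and 14 did not pass. Scaling by library totals gave 7 higher and 4 lower in RNAseq. Of all leading transcripts 32.8% were called in RNAseq (17.3% higher, 15.4% lower) and 40.2% in RF (20.8% higher, 19.4% lower), and of the list 34.6% and 46.2%. For TE 5.86% of leading transcripts were called (1.56% higher, 4.3% lower). The list's median log2 fold change was 0.16 in RNAseq and 0.07 in RF, against -0.01 for all leading transcripts in both.

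The largest increase among the measured genes of this list was that of Crem, which encodes CREM and its inducible repressor ICER. Crem and Sik1 had mean RNAseq RPKM of 5.5 and 3.9 in untreated cultures, below the filter of 10. Both were thus measured only through the KCl cultures, where they are high. In the fit without the filter, 10 of 50 genes of the list were higher and 4 lower in RNAseq, where 19.6% of all leading transcripts were called. Its level rose from 19.4 ± 6.11 (SD, n = 3) to 151 ± 45.4 (SD, n = 2) normalised CPM in RNAseq, a log2 fold change of 2.95 (SE 0.21, edgeR adjusted p = 1.88e-14), and in RF by 2.82 (SE 0.18, adjusted p = 3.3e-13). Sik1, a kinase that restrains the CREB coactivators, rose by 2.11 in RNAseq (SE 0.20, adjusted p = 2.14e-11) and 2.62 in RF (SE 0.16, adjusted p = 1.18e-13). Its relative Sik3 had 1.04 and 1.20, with adjusted p of 5.53e-08 and 1.48e-09. Prkar1a, a regulatory subunit of protein kinase A, was higher by 0.89 in RNAseq and 0.64 in RF (adjusted p = 2.97e-07 and 1.82e-07).

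Of the MEF2 factors, 3 were measured and each was called higher in both assays, while Mef2b had at most 3 RNAseq reads per library. Mef2d rose by 0.95 in RNAseq (SE 0.14, adjusted p = 8.52e-07) and Mef2a by 0.99 in RF (SE 0.15, adjusted p = 4.02e-06). Mef2c had a log2 fold change of 0.87 in RNAseq (adjusted p = 0.0335), where untreated culture 1 (84.0 normalised CPM) lay above KCl culture 5 (80.3), and 0.85 in RF (adjusted p = 0.0001), where the groups did not overlap. Camk1d, a calmodulin-dependent kinase, was lower in RNAseq (log2 fold change -0.66, SE 0.17, adjusted p = 0.00265) and in RF (-0.89, SE 0.16, adjusted p = 7.97e-05). For TE 1 of the 26 was called, chosen for mention after its value was seen: Hdac5, a repressor of MEF2, was lower (-1.18, SE 0.27, adjusted p = 0.00111), and it was not called without KCl culture 5. In RNAseq Hdac5 was higher (0.86, SE 0.17, edgeR adjusted p = 9.25e-05), and in RF it did not pass the test (-0.31, SE 0.21). Without untreated culture 2 there were 2 TE calls in this list.

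Partners and coregulators of NR4A proteins were listed as 22 genes, with 9 measured. In RNAseq 3 were higher and none lower (3 and 1 by library totals, 5 calls in all without untreated culture 1), and in RF 3 rose and 3 fell. The called share was 33.3% in RNAseq and 66.7% in RF, against 32.8% and 40.2% of all leading transcripts. The largest change among the measured genes was that of Ppargc1a, the coactivator PGC-1alpha. Its untreated mean RNAseq RPKM was 4.7, so it passed the filter only through the KCl cultures. It rose from 38.6 ± 4.87 to 148 ± 5.39 normalised CPM in RNAseq (SD, n = 3 and 2), by 1.93 on the log2 scale (SE 0.17, edgeR adjusted p = 3.94e-12). In RF it rose by 2.62 (SE 0.15, adjusted p = 7.57e-14). The acetyltransferase Ep300 was higher by 0.83 in RNAseq and 0.73 in RF (adjusted p = 8.72e-06 and 7.28e-06), and the coactivator Ncoa1 by 0.64 in RNAseq (adjusted p = 0.00117).

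The genes that fell in RF included Hdac3 and Med1. Hdac3, a histone deacetylase, had a log2 fold change of -0.83 (SE 0.15, edgeR adjusted p = 7.88e-05). Med1, a Mediator subunit, had -0.49 (adjusted p = 0.00788), a call lost without KCl culture 4 or 5. Hdac3 was also the 1 gene of the list called for TE (-0.85, SE 0.25, adjusted p = 0.0178), a call lost without untreated culture 3 or either KCl culture.

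The retinoid X receptors, with which Nr4a2 can pair, missed the filter and are given from the fit without it. Rxra had 30.3, 34.7 and 32.3 normalised CPM in untreated and 27.1 and 29.3 in KCl cultures in RNAseq, a log2 fold change of -0.14 (SE 0.24, adjusted p = 0.742). Rxrb had 26.8, 32.8 and 29.0 against 21.8 and 31.5 (-0.09, SE 0.25, adjusted p = 0.859). Rxrg was near the limit of counting, with 3 to 8 reads per RNAseq library. No change of the 3 was called in RNAseq or RF.

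Genes reported elsewhere as NR4A targets were listed as 40, and only 8 were measured, none of them a dopaminergic gene. Th, the rate-limiting enzyme of dopamine synthesis, had 0 to 7 RNAseq reads per library and Slc6a3, the dopamine transporter, 0 to 2. Of the 8, none was higher and 2 were lower in RNAseq (1 without KCl culture 5, 4 by library totals). In RF 1 of them was higher and 2 fell. The median log2 fold change was -0.19 in RNAseq and -0.02 in RF, against -0.01 for all leading transcripts in both.

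Spp1, which encodes osteopontin, was lower in RNAseq (208 ± 14.4 against 129 ± 11.0 normalised CPM, SD, n = 3 and 2), with a log2 fold change of -0.69 (SE 0.14, edgeR adjusted p = 0.000239). Its footprints did not pass the test (-0.03, SE 0.12), and its TE was called higher (0.66, SE 0.17, adjusted p = 0.00571), though not without KCl culture 4 or 5. Ccnd1, the G1 cyclin D1, had -0.59 in RNAseq (adjusted p = 0.00359) and -0.52 in RF (adjusted p = 0.00333), the first lost without KCl culture 5 and the second without culture 4. Nrp1, a semaphorin coreceptor, was lower in RF (-0.61, adjusted p = 0.00023), and Gpx1, a glutathione peroxidase, was higher in RF (0.48, adjusted p = 0.00375), a call lost without KCl culture 5.

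The other nuclear receptors, 46 genes, gave 6 that were measured. In RNAseq 3 were higher and none lower (3 and 1 by library totals). In RF 1 was higher and 2 fell. Rorb, an orphan receptor of the ROR group, was higher in both assays, by 1.00 in RNAseq (SE 0.14, edgeR adjusted p = 3.35e-07) and 1.15 in RF (SE 0.13, adjusted p = 3.22e-08). Nr2f1 (COUP-TFI), a regulator of cortical area identity, was higher in RNAseq by 1.04 (SE 0.18, adjusted p = 1.2e-05) and had 0.02 (SE 0.23) in RF. Nr2e1 (TLX), known from neural stem cells, was higher in RNAseq by 0.82 (adjusted p = 0.00155), a call lost without KCl culture 4.

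Thra, the thyroid hormone receptor alpha, was lower in RF only, from 105 ± 3.55 to 49.7 ± 2.68 normalised CPM (SD, n = 3 and 2), a log2 fold change of -1.10 (SE 0.15, adjusted p = 8.21e-07). In RNAseq it had 0.20 (SE 0.13, adjusted p = 0.226), and its TE was called lower (-1.30, SE 0.21, adjusted p = 8.29e-08). Nr1d1 (REV-ERBalpha) was also lower in RF (-0.90, SE 0.21, adjusted p = 0.00122), though not without KCl culture 5. Thra and Nr1d1 overlap on opposite strands at their 3′ ends, so part of their reads may be shared. Nr2f1 was the second of 2 called for TE (-1.09, SE 0.31, adjusted p = 0.0122), and 1 of the 2 calls was left without KCl culture 4 or 5.

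Immediate early genes, the class to which the NR4A genes belong, rose in both assays. Of 22 listed, 14 were measured, with 13 higher and none lower in RNAseq, and 12 rising and 1 falling in RF. The called share was 92.9% in each assay, against 32.8% and 40.2% of all leading transcripts. The median log2 fold changes were 1.69 and 1.82, against -0.01 for all leading transcripts in both. Maff, a small Maf factor, rose from 39.5 ± 11.0 to 429 ± 27.3 normalised CPM in RNAseq, by 3.44 on the log2 scale (SE 0.16, edgeR adjusted p = 6.37e-20), and by 3.61 in RF (SE 0.16, adjusted p = 3.8e-16). Csrnp1, a nuclear protein first found as a target of AXIN1, rose by 3.44 in RNAseq (SE 0.22, adjusted p = 6.03e-16) and 3.24 in RF (SE 0.20, adjusted p = 1.82e-13).

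Other members rose less. The AP-1 subunit Fosl2 rose by 2.95 in RNAseq and 3.03 in RF (adjusted p = 1.16e-19 and 1.75e-16), and the zinc finger factor Egr2 by 2.85 and 2.61 (adjusted p = 5.95e-12 and 8.55e-09). The phosphatase Dusp1 rose by 2.44 in RF (adjusted p = 6.07e-12). Klf4, which missed the filter, had 6.23, 5.85 and 11.0 normalised CPM in untreated and 78.5 and 75.1 in KCl cultures in RNAseq. Homer1 was the 1 gene called higher in RNAseq that was not called in RF (0.65, SE 0.29, adjusted p = 0.0744). Jund was the 1 called lower in RF (-0.50, SE 0.20, adjusted p = 0.0487). That call was lost in the edgeR fit without the filter (-0.44, SE 0.22, adjusted p = 0.132).

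TE set some of these genes apart from each other. Srf, the factor that binds CArG boxes, rose from 53.4 ± 5.55 to 263 ± 6.67 normalised CPM in RNAseq (SD, n = 3 and 2, edgeR adjusted p = 1.43e-15) and from 19.0 ± 5.48 to 29.9 ± 4.24 in RF, a log2 fold change of 0.75 (SE 0.24, adjusted p = 0.014), and its TE was called lower (-1.60, SE 0.28, adjusted p = 3.43e-06). Jun and Fos were called higher for TE, by 0.73 (SE 0.18, adjusted p = 0.00296) and 0.70 (SE 0.23, adjusted p = 0.0387). Both calls were lost without KCl culture 4 or 5, where 1 of the 3 was left. For Nr4a2-proximal the TE value was 0.67 with an SE of 0.38.

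**Figure D4:**
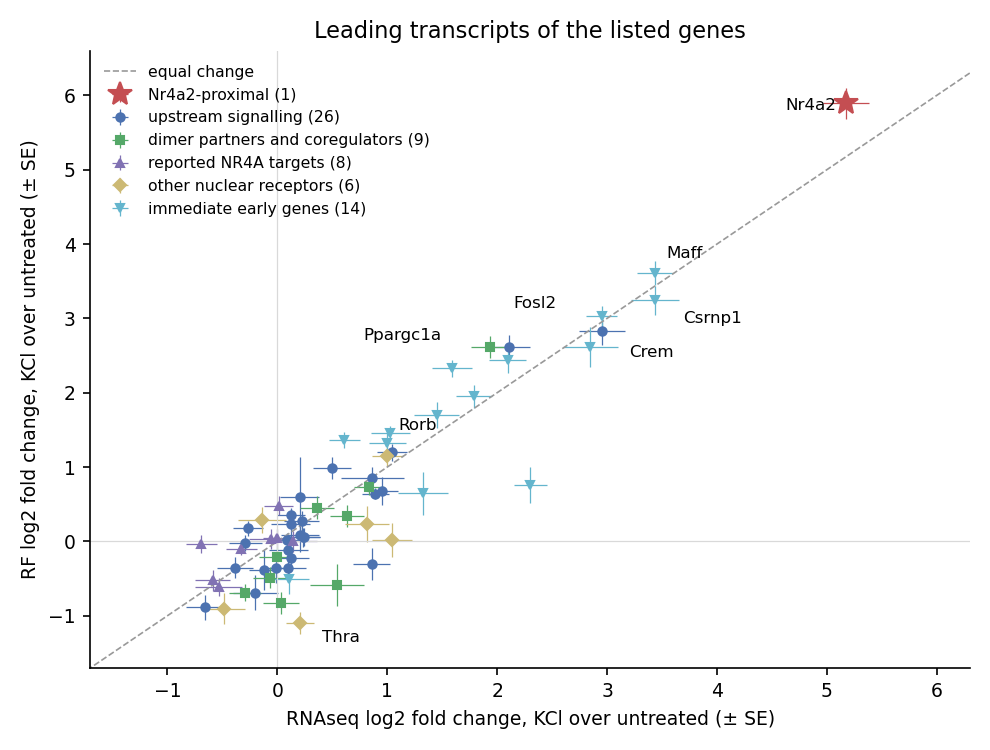
Log2 fold change after KCl in RNAseq (horizontal) and CDS RF (vertical), with SE bars, for the leading measured transcript of each listed gene and for Nr4a2-proximal. Nr4a2-proximal lies at 5.17 and 5.90, beyond Maff at 3.44 and 3.61, and Thra lies near 0 in RNAseq and at -1.10 in RF.

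The genes most like Nr4a2 over the 10 libraries were sought by Euclidean distance of log2(normalised CPM + 1), each assay centred on its untreated mean, with 1 transcript per gene. The nearest were Maff (distance 3.62), Csrnp1 (4.06), Fosl2 (4.62), Klf5 (4.65) and Mafk (4.68), where the median gene was at 10.5. The 10 libraries come from 5 cultures and 2 treatments, so this likeness mostly records the size of the change after KCl. Klf5, a Krüppel-like factor, had 17.1, 18.7 and 15.9 normalised CPM in untreated and 114 and 121 in KCl cultures in RNAseq. Mafk, like Maff a small Maf factor, had 8.95, 17.9 and 11.0 against 108 and 111. Ranked by Pearson correlation instead, the 5 nearest included Dusp1, Slc38a2, Khdc4 and Chka, and none of the first 5 was among them.

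**Figure D5:**
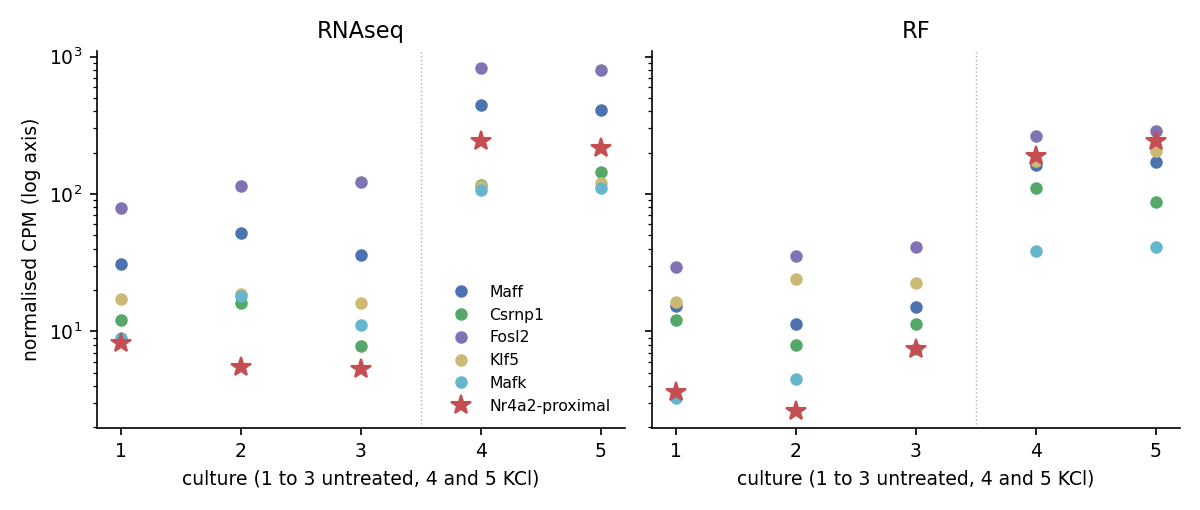
Normalised CPM on a log axis in each culture for Nr4a2-proximal and the 5 genes nearest to it, in RNAseq (left) and RF (right), with the KCl cultures to the right of the dotted line. All 6 genes are higher in both KCl cultures, and Nr4a2-proximal starts lowest in RNAseq.

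Cell type markers give the setting of these changes. Of the 9 listed neuron markers 3 were measured, with none called in RNAseq and Snap25, a synaptic membrane fusion protein, higher in RF (log2 fold change 0.87, edgeR adjusted p = 0.0318), a call lost with DESeq2, by library totals, without untreated culture 3 and without either KCl culture. Without untreated culture 1, all 3 were called in RNAseq, 2 higher and 1 lower. Of all leading transcripts 32.8% were called in RNAseq and 40.2% in RF. Of the 7 astrocyte markers 3 were lower and none higher in RNAseq, whereas 4 were higher and none lower in RF. The RF calls were Aqp4 (0.36), Aldoc (0.36), Slc1a3 (0.24) and Gja1 (0.21), with adjusted p of 0.000428, 0.000469, 0.0113 and 0.0268. By library totals 2 of the 4 were called, without KCl culture 4 also 2 and without KCl culture 5 only Aqp4, and in RNAseq 1 of the 3 was left without KCl culture 5. In RNAseq, the oligodendrocyte lineage summed to an RPKM of 1247 to 1395 in untreated and 1151 to 1167 in KCl cultures, microglial markers to 51.2 to 60.0 and 39.3 to 51.7, and endothelial markers to 4.63 to 6.32 and 4.36 to 5.29. The dopaminergic markers summed to 2.00 to 4.30 and 2.69 to 2.83, near the bottom of what was counted. The part of cell composition in the Nr4a2 values was not tested.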

How the data were processed

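RNAseq and RF libraries of 3 untreated and 2 KCl cultures were grouped by their labels. The authors used Trimmomatic 0.32 for trimming, STAR 2.3.1z8 against rRNA and Bowtie2 2.2.2 for alignment to an mm10 transcriptome. They deposited raw counts per transcript region from bedtools 2.20.1, in which a read can count for several transcripts, so isoforms share reads. Strand use in counting is not given in the sources used here.

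Transcripts were matched to GENCODE vM21 (GRCm38): 22172 of 22534. RNAseq values are reads over all regions and RF values reads on the CDS. RPKM used library totals and annotated lengths. The median measured transcript had 70 to 379 CDS footprints per RF library. No pair of replicate libraries agreed within counting noise (chi-square per degree of freedom 1.28 to 4.69).

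Tests on counts used quasi-likelihood fits of edgeR 4.0.16 under R 4.3.3 (robust dispersions, TMM within each assay, Benjamini-Hochberg over 7262 transcripts), with culture as a block for TE, since both libraries of a culture come from 1 lysate. 5′UTR footprints were fitted for 5275 transcripts with at least 10. The SE is the absolute log2 fold change over the square root of F. It is an approximation. The fits were tested on simulated data. Alternatives were DESeq2 1.42.0, library totals, other filters, 1 transcript per gene, single fits, no block and leaving out each culture.

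A gene's leading transcript is that with the highest mean RNAseq count. From each list up to 5 genes per assay were named, in order of absolute change, among those with an adjusted p under 0.05 and both KCl cultures beyond all untreated ones. Exceptions are genes called for TE, Mef2c, the retinoid X receptors, Th, Slc6a3, Klf4, Homer1 and Jund, which were added with their values in view. Some genes that the rule names are not reported here. The family, the lists, the nearest gene rule and the tests were chosen with earlier results of these data known. Promoter letters come from RefSeq's table and the GRCm38 genome.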

Additional observations from a re-analysis of the deposited data

How the results depend on the processing

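The log2 fold change of Nr4a2-proximal stayed positive in RNAseq, RF and 5′UTR RF under every alternative run. These alternatives refit the counts by which the family was chosen, so they show only how the value depends on the processing. For Nr4a2-proximal it ranged from 5.09 to 5.23 in RNAseq, 5.79 to 5.97 in RF and 5.33 to 5.43 in 5′UTR RF. For TE, which was never called, it ranged from 0.57 to 0.72. Leaving out 1 culture at a time gave 5.06 to 5.40, 5.66 to 6.08, 4.45 to 6.34 and 0.33 to 1.02. Without the replicate block, that is without pairing the libraries of a culture, TE was 0.72 for Nr4a2-proximal with 420 calls over all transcripts against 421, and no list count moved by over 1.5 times.

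Counts of calls moved as follows. Without a filter beyond 1 read there were 4166 calls in RNAseq and 5412 in RF, with edgeR's filterByExpr 4232 and 5330, and with 1 transcript per gene, where fewer transcripts were tested, 1441, 1744 and, for TE, 262. DESeq2 called 179 for TE. Leaving out 1 culture gave 1638 to 2637 for RNAseq, 1698 to 3233 for RF, 70 to 547 for TE and 9 to 499 for 5′UTR RF. The cause was not tested. List counts for RNAseq became 14, 6, 4 and 5 (upstream signalling, partners, targets, other nuclear receptors) without the filter and 15, 6, 4 and 5 with filterByExpr, where more genes were tested. For RF, upstream signalling, targets and other nuclear receptors gave 19, 6 and 8, and 20, 6 and 8. Targets had 4 RNAseq calls with library totals and in a single fit of all 10 libraries. With DESeq2, TE calls were 0 for upstream signalling, 0 for partners and 1 for other nuclear receptors. Leaving out 1 culture gave 7 to 11, 3 to 5, 1 to 3, 2 to 4 and 13 to 13 calls in RNAseq in the order above with immediate early genes last, 9 to 14, 4 to 7, 2 to 3, 2 to 3 and 11 to 13 in RF, and 0 to 2, 0 to 1, 0 to 2, 1 to 2 and 1 to 3 for TE. The 5′UTR share of the KCl footprints of Nr4a2-proximal was 10.3% to 10.9%. By Pearson correlation 0 of the 5 nearest genes were shared, and with a pseudocount of 0.1 all 5 were. Depth limits the untreated values of Nr4a2, which rest on 8 to 21 reads.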
